A study of Mus musculus with 12 samples.

Results

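The genes described here are 10 innate sensing genes, taken by symbol from a table of 55137 gene identifiers: the Toll-like receptors Tlr2, Tlr3, Tlr4 and Tlr5, the cytosolic receptor Nod1, the adaptor Myd88, the kinases Irak1 and Irak4, the ubiquitin ligase Traf6 and the inhibitor Tollip. All 10 symbols were found, each with 1 identifier. They were read in 12 RNA libraries of CMT-93, a mouse rectal epithelial cell line, in 4 groups of 3. Controls received vehicle, the PTSO group received the garlic compound PTSO at 20 µM, the T. muris group received vehicle and then antigens of the mouse whipworm Trichuris muris at 100 µg/mL, and the last group received PTSO followed by the antigens. PTSO or vehicle was added 30 minutes before the antigens, and harvest followed after 6 hours. LPS, a ligand of Tlr4, stands in the title of the series, but no sample label mentions it, and groups were taken from the sample labels. All groups share a single cell line. Whether the libraries of 1 group come from separate cultures is not stated, so p-values measure only the spread between these libraries.

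Toll-like receptors recognise microbial molecules at the cell surface or in endosomes. Tlr2 binds bacterial lipopeptides together with Tlr1 or Tlr6, Tlr4 binds lipopolysaccharide with the help of Ly96 and Cd14, Tlr5 binds flagellin, and Tlr3 binds double-stranded RNA. Myd88 links the receptors other than Tlr3 to Irak4, which activates Irak1 and then Traf6 on the way to NF-kB, while Tollip holds Irak1 back. Nod1 senses fragments of bacterial cell wall in the cytosol and signals through Ripk2. Intestinal epithelium lives beside dense bacteria and is known for keeping this sensing restrained.

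Library totals ran from 16684143 to 34506754 counts. Control libraries 2 and 3 stood apart: on the first principal component (19.6% of the variance) they scored -35.4 and -41.5, against -3.58 for control library 1 and 0.929 to 23 for the 9 treated ones. Results against control are therefore also given without those libraries. That leaves 1 control library, which is assumed to vary like the libraries of the other groups. A call lost in that setting therefore says little, and its values are read for their size. The libraries left out were picked for lying farthest from the treated ones, so smaller differences without them follow in part from that choice. The epithelial label fitted the markers, with all 11 epithelial markers above the filter on low counts and summed levels of 9289 to 10003 CPM, the usual unit for a gene's counts relative to the scaled library total. Keratins Krt8 (2910 CPM) and Krt18 (2205 CPM), Cdh1 (1274 CPM) and Epcam (570 CPM) were abundant, whereas the intestinal regulator Cdx2 (0.864 CPM), Vil1 (3.59 CPM) and Krt20 (0.502 CPM) were low. Of 12 leukocyte markers, 2 passed the filter, Cd68 and Csf1r, the list summed to 3.41 to 6.4 CPM, Tyrobp had 0 counts in all libraries and Ptprc had at most 4. Of 10 fibroblast and endothelial markers 4 passed the filter and Col3a1, Pdgfrb and Dcn had 0 counts. The highest of these markers were Tek (3.15 CPM), Col1a1 (2.44 CPM), Pdgfra (0.944 CPM) and Col1a2 (0.409 CPM). The last list summed to 7.53 to 9.63 CPM in control, 7.05 to 7.95 with PTSO, 7.8 to 8.52 with antigens and 5.18 to 7.06 with both, and the leukocyte list to 5.11 to 6.4, 3.41 to 6.2, 3.67 to 5.87 and 3.81 to 5.1 CPM. Their part in the results was not tested.

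Levels per kilobase of exon adjust for gene length, taken as all annotated exons of a gene joined. That length can exceed the length of the RNA present, so close ranks depend on it. Per kilobase, the 5 signalling genes had higher mean levels than all 5 receptors. On that scale the order of mean levels over the 12 libraries was Irak1 (17 CPM per kilobase), Tollip (13.4), Myd88 (6.89), Irak4 (6.04), Traf6 (6), Tlr4 (4.61), Tlr3 (3.28), Tlr2 (0.238), Nod1 (0.232) and Tlr5 (0.0259). Irak1 stood above Tollip, and Tollip above Myd88, in every library. Myd88 overlapped Irak4, Irak4 overlapped Traf6 and Tlr2 overlapped Nod1 in their ranges, so these neighbours did not differ beyond their spread. The range of Irak4 (4.7 to 8.26) also overlapped that of the receptor Tlr4 (4.23 to 5.2), although Irak4 was the higher within each library. A step of 13.8-fold separated Tlr3 from Tlr2, and one of 8.95-fold separated Nod1 from Tlr5. Among 14840 tested genes with an exonic length, Irak1 exceeded 76.1% and Tlr4 44.9%, while Tlr2 and Nod1 exceeded 8.07% and 7.86%. In these bulk libraries, fewer expressing cells and less RNA per cell cannot be told apart.

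**Figure D1:**
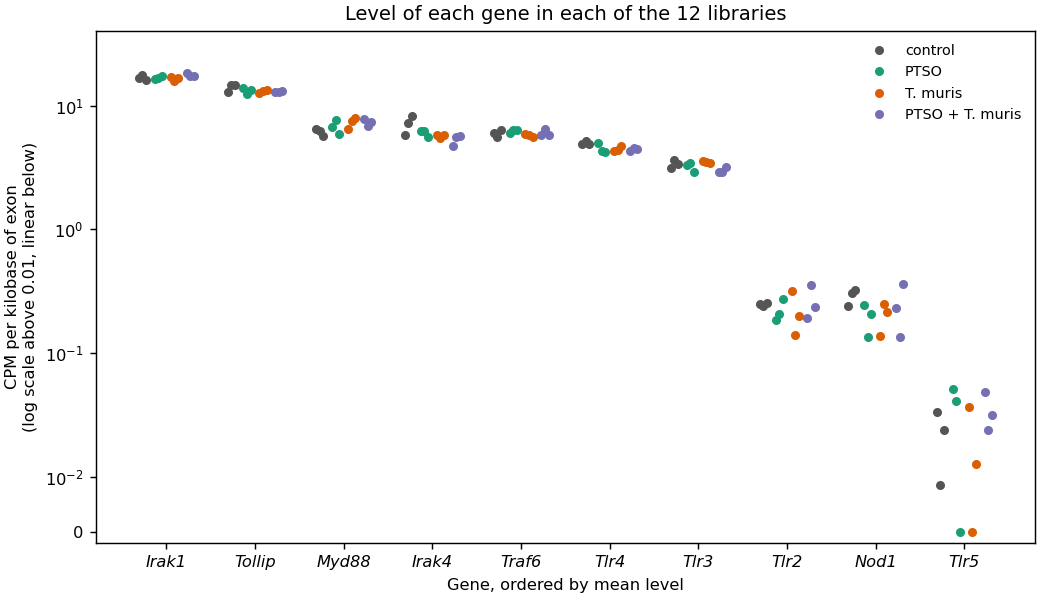
Level of the 10 genes in each of the 12 libraries, in CPM per kilobase of exon on an axis that is logarithmic above 0.01 and linear below it. Each point is a library, coloured by group, and the genes run from Irak1 (mean 17) to Tlr5 (mean 0.0259). Tlr2, Nod1 and Tlr5 lie apart from the other genes, and no gene shows 4 separate groups.

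The promoters of these genes differ in CpG content, which is shown here because it is a feature of the genes that their selection did not use. RefSeq promoters (GRCm38.p6) were matched for 9 of the 10 genes, 11 promoters in all, and Tlr4 is the gene without one. In the 250 bases before the start, the dinucleotide CG, which reads the same on both strands, occurred 17 times for Tollip, 14 for Irak4, 13 and 14 for the 2 listed starts of Irak1, 13 for Traf6 and 9 for Myd88. It occurred 12 and 4 times for the 2 starts of Nod1, 11 times for Tlr2, 6 for Tlr3 and 4 for Tlr5. The median of all 32841 promoters was 6. Of all promoters, 23.5% had at least the 17 of Tollip, 29.4% at least the 14 of Irak4 and 62.2% at least the 4 of Tlr5. These promoters are printed below, 5′ to 3′ along the gene, with each CG in capitals.
Tollip, chr7:141902462-141902711, - strand: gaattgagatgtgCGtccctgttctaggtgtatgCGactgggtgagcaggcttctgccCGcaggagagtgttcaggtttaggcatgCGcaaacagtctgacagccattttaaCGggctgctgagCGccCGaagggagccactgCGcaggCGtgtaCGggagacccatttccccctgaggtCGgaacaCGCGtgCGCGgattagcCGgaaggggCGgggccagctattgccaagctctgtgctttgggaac
Irak4, chr15:94543410-94543659, + strand: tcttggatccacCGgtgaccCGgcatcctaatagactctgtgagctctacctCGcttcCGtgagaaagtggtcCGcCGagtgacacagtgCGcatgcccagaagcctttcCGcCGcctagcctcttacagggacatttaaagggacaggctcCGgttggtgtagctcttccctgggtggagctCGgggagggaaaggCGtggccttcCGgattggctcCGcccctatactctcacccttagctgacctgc
Tlr5, chr1:182954538-182954787, + strand: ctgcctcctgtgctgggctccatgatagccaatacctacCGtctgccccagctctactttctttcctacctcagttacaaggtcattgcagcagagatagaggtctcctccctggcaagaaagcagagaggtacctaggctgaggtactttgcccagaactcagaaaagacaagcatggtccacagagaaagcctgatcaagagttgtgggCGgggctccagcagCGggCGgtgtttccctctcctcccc
Tollip was the second most abundant of the 10 genes, Irak4 the only one called in a comparison with all libraries fitted by edgeR, and Tlr5 the least abundant.

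Tlr5, the flagellin receptor, was close to the limit of detection in every group. Its counts were 4, 1 and 3 in the control libraries, 7, 6 and 0 with PTSO, 6, 0 and 1 with T. muris antigens, and 6, 3 and 3 with both. The libraries of the 4 groups overlapped, and 2 of the 12 had no count. Summed over a group, this is 0.105 CPM in control (exact Poisson 95% interval 0.0455 to 0.208), 0.158 CPM with PTSO (0.0843 to 0.271), 0.0909 CPM with T. muris antigens (0.0365 to 0.187) and 0.168 CPM with both (0.0868 to 0.293). These intervals cover counting error only and overlap each other. The limit that 3 counts set is 0.0365 to 0.042 CPM per group, and every group lay above it. Tlr5 did not pass the filter on low counts and was not tested in the main comparisons. Without the filter its log2 fold changes ran from -0.32 to 0.97. Each of the 5 pairwise 95% intervals reached down to -1.53 or further and up to 2.24 or further. Changes between these bounds were therefore not excluded in any of them. What size of change could be detected for Tlr5 was not tested.

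Tlr2 and Nod1 were present at low counts. Tlr2, the lipopeptide receptor, had 19, 18 and 20 counts in the control libraries, 16, 19 and 19 with PTSO, 33, 11 and 10 with antigens, and 15, 28 and 14 with both. Nod1 had 31, 38 and 43 counts in control, 36, 21 and 24 with PTSO, 24, 33 and 18 with antigens, and 30, 18 and 36 with both. All 4 groups overlapped for both genes. In CPM, Nod1 was 1.47 ± 0.218 in control, 0.997 ± 0.286 with PTSO, 1.02 ± 0.292 with antigens and 1.23 ± 0.573 with both (mean ± SD, n = 3 libraries). Its log2 fold change was -0.57 (95% interval -1.37 to 0.24) for PTSO against control and -0.55 (-1.36 to 0.27) for antigens against control, with adjusted p = 0.413 and 0.407. Without control libraries 2 and 3 these Nod1 values moved to -0.31 and -0.28 (adjusted p = 0.952 and 0.998). For Tlr2 the intervals of the 5 pairwise comparisons lay between -1.08 and 1.16 on the log2 scale and all included 0.

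Tlr4 and Tlr3 were the receptors with enough counts for a narrower error, 437 to 814 and 299 to 632 per library. Tlr4, the lipopolysaccharide receptor, was at 27, 28.9 and 27.4 CPM in the control libraries, 28, 23.8 and 23.5 with PTSO, 23.8, 24.4 and 26.3 with antigens and 24.1, 25.4 and 24.8 with both. The T. muris group and the combined group each lay below the same controls, and PTSO library 1 lay among the controls. Of all genes tested, 22.9% and 29.4% had groups without overlap, in either direction, for antigens and for both against control. The log2 fold change of Tlr4 was -0.14 ± 0.0842 (SE) for PTSO, -0.16 ± 0.0848 for antigens and -0.17 ± 0.0848 for both against control, with adjusted p = 0.321, 0.232 and 0.192. Without control libraries 2 and 3 these values of Tlr4 were -0.1, -0.12 and -0.12 (adjusted p = 0.852 to 0.998).

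Tlr3, the endosomal RNA receptor, was at 16.4, 19.1 and 17.6 CPM in control, 17.2, 18 and 15.2 with PTSO, 18.5, 18.2 and 18 with antigens and 15.2, 15.3 and 16.6 with both. The combined group lay below the T. muris group without overlap. The log2 fold change of Tlr3 between them was -0.22 ± 0.0975, 14% lower, with an unadjusted p of 0.0369 and adjusted p = 0.505. PTSO without antigens gave -0.07 ± 0.0963 for Tlr3, and the difference between these PTSO effects was -0.15 ± 0.137 (adjusted p = 0.773).

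**Figure D2:**
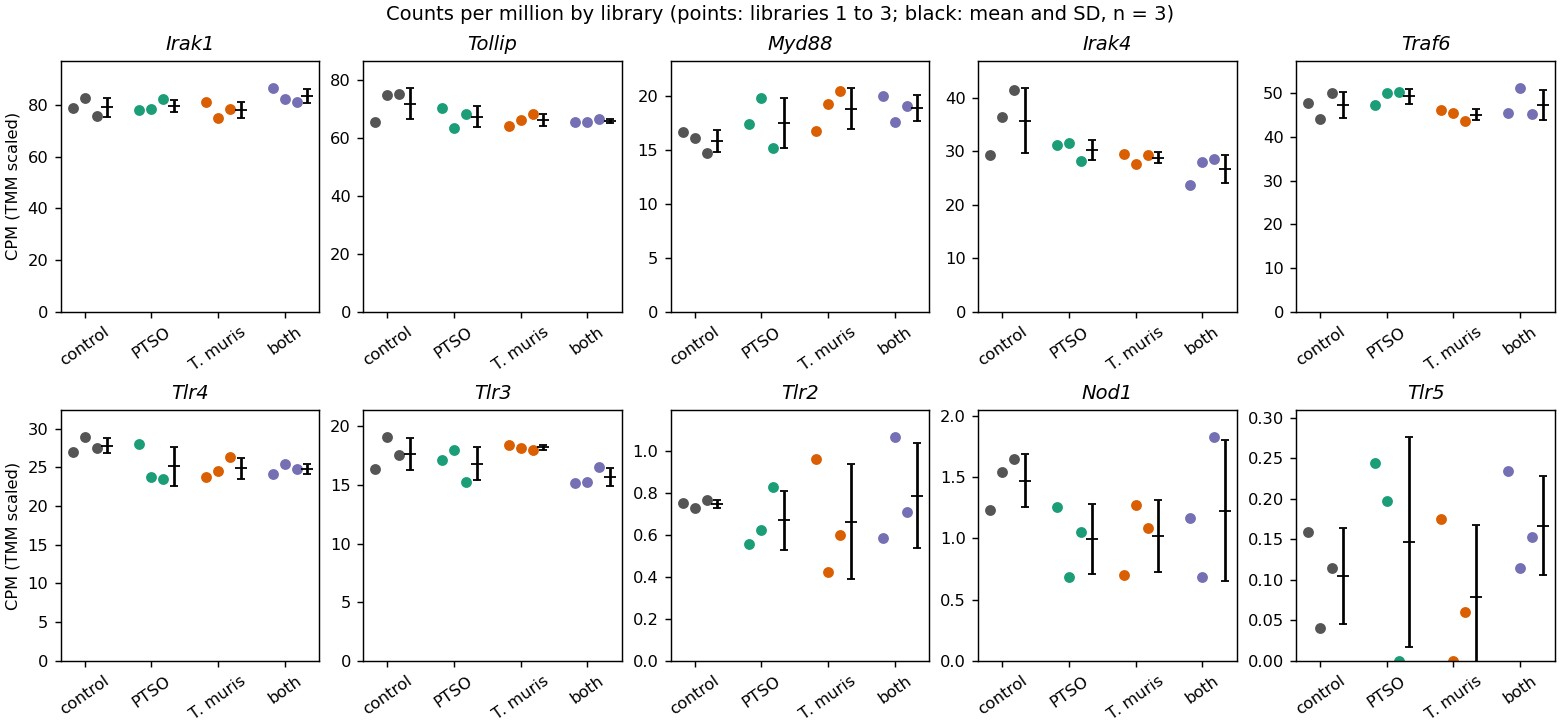
CPM of each gene by group, on axes that start at 0; coloured points are libraries 1 to 3 and the black bar is the mean with its SD (n = 3), cut at 0 for Tlr5. For Irak4, control library 1 (29.3 CPM) lies at the level of the treated libraries, with controls 2 and 3 (36.3 and 41.5 CPM) above them.

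Irak4, the first kinase recruited to Myd88, was the one gene of the 10 called in any comparison when all libraries were fitted by edgeR. Its levels were 29.3, 36.3 and 41.5 CPM in the control libraries, 31.1, 31.6 and 28.1 with PTSO, 29.4, 27.5 and 29.3 with antigens, and 23.6, 27.9 and 28.4 with both treatments. The combined group lay wholly below the controls, while the PTSO and T. muris groups overlapped control library 1. Irak4 fell by 25.4% with both treatments against control, from 35.7 ± 6.11 to 26.6 ± 2.65 CPM (SD, n = 3 libraries), a log2 fold change of -0.42 ± 0.106 with adjusted p = 0.0109 in edgeR's quasi-likelihood test. Its log2 fold change was -0.24 ± 0.104 for PTSO (adjusted p = 0.178) and -0.31 ± 0.105 for antigens (adjusted p = 0.0711), neither past the threshold. Without control libraries 2 and 3 these were 0.05 and -0.03. Adding PTSO to antigens gave -0.11 ± 0.107 and adding antigens to PTSO -0.19 ± 0.106 for Irak4 (adjusted p = 0.828 and 0.829). These comparisons hold no control libraries, but their SEs come from the fit of all libraries, controls included. Fitted on only the libraries compared, adding PTSO to antigens gave -0.11 (interval -0.28 to 0.066, adjusted p = 0.623 in the same test). Adding antigens to PTSO gave -0.18 in that setting (interval -0.36 to -0.0045, adjusted p = 0.47), with the whole interval negative but no call. That interval is not adjusted for the number of genes, and in the fit of all libraries it was -0.41 to 0.035.

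The size of the Irak4 difference moved with the control libraries kept. Without control library 2 its log2 fold change with both treatments was -0.41 (adjusted p = 0.0495), without control library 3 it was -0.3 (adjusted p = 0.0808), and against control library 1 alone it was -0.14 with an interval of -0.37 to 0.1 (adjusted p = 0.812). Without PTSO + T. muris library 1 it was -0.35 (adjusted p = 0.0755), and without control library 1 it was -0.55 (adjusted p = 2.12e-05). Fitted on the 6 libraries of these groups alone, the value of -0.43 had adjusted p = 0.0699. The exons of Irak4 share 395 bases, 7.87% of their length, with the gene Twf1 on the opposite strand, and the strand setting of the counting is not given in the sources used here. Twf1, which encodes an actin-binding protein, was at 146 CPM on average and at -0.08 ± 0.0489 in this comparison (adjusted p = 0.293).

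**Figure D3:**
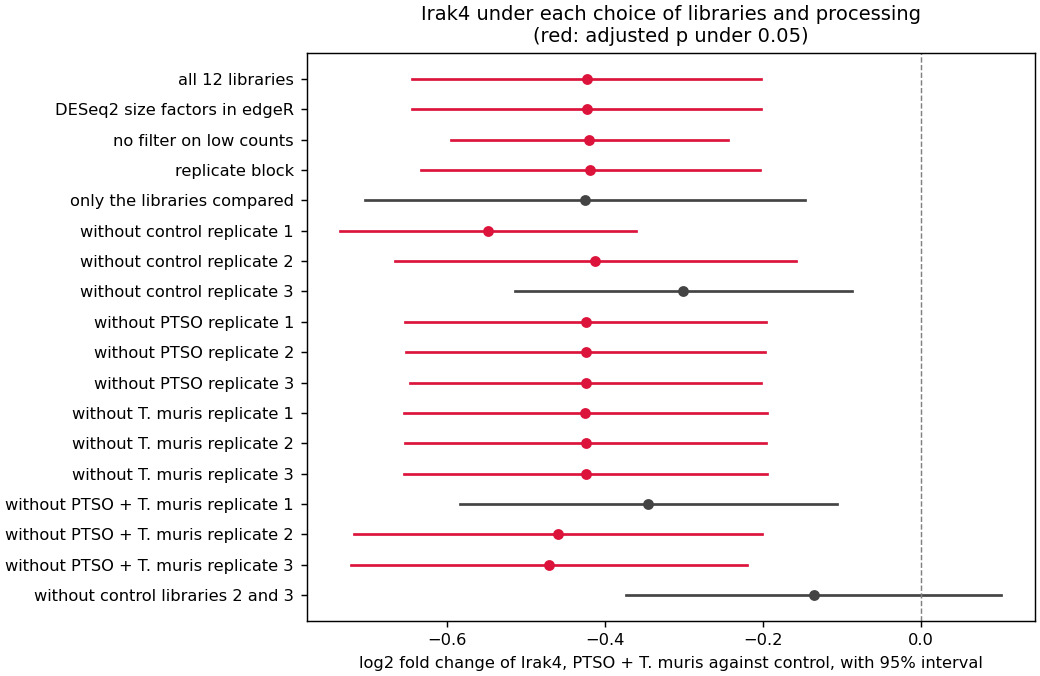
Log2 fold change of Irak4 between PTSO + T. muris and control, with its 95% interval, with all 12 libraries (-0.42) and under each alternative that gives an interval. Red marks adjusted p under 0.05; the value nearest to 0 (-0.14) is the one without control libraries 2 and 3.

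By the pattern over the 12 libraries, the genes most like Irak4 were Prps2 (Pearson r = 0.972), Ets2 (0.971) and 2210407C18Rik (0.967). These are the top values among all genes tested, over libraries that share the step between controls 2 and 3 and the rest, and they are given as a description.

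Myd88, the adaptor of the pathway, was at 16.6, 16.1 and 14.7 CPM in control, 17.4, 19.8 and 15.2 with PTSO, 16.7, 19.3 and 20.5 with antigens, and 19.9, 17.6 and 19.1 with both. The T. muris group, in library 1 narrowly, and the combined group each lay above the same controls. Groups did not overlap, in either direction, for 22.9% and 29.4% of all genes tested in these comparisons. The log2 fold change of Myd88 was 0.25 ± 0.11 for antigens and 0.26 ± 0.11 for both treatments against control, with adjusted p = 0.169 and 0.116. These comparisons share their controls. Without control libraries 2 and 3 the values were 0.17 ± 0.149 and 0.19 ± 0.149 (adjusted p = 0.998 and 0.791). The exons of Myd88 share 290 bases, 11.3% of their length, with Acaa1a on the opposite strand, a peroxisomal thiolase gene at 57.9 CPM on average that was at -0.2 ± 0.0675 with antigens and -0.23 ± 0.0676 with both treatments (adjusted p = 0.0718 and 0.0241). Its part in the Myd88 values was not tested.

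Irak1, Traf6 and Tollip varied least. Over the 12 libraries Irak1, the kinase that Irak4 activates, ranged from 75 to 86.6 CPM with a coefficient of variation of 4.13%. The combined group (86.6, 82.5 and 81.3 CPM) lay just above the T. muris group (81, 75 and 78.4 CPM), with a log2 fold change of 0.1 ± 0.0543 and adjusted p = 0.645. Traf6, the ubiquitin ligase below the kinases, ranged from 43.8 to 51.3 CPM with a coefficient of variation of 5.55%, and all groups overlapped. Tollip, the inhibitor, was at 65.6, 74.8 and 75 CPM in control and at 63.3 to 70.3 CPM in the 9 treated libraries, with -0.1 ± 0.061, -0.12 ± 0.0613 and -0.13 ± 0.0614 for PTSO, antigens and both against control (adjusted p = 0.376, 0.216 and 0.166). Control library 1 was again the one among the treated values, and without libraries 2 and 3 the values of Tollip were 0.03, 0.0073 and 0.0065. Without control library 1 instead, Tollip passed the threshold in all 3 comparisons, at -0.16, -0.19 and -0.19. For Irak1 and Traf6 the 95% intervals of the 5 pairwise comparisons stayed between -0.21 and 0.22 on the log2 scale.

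The counts of members are set beside those of all 15267 genes tested, and with 9 members they were too few to be told from the background. With PTSO against control 0 of the 9 tested members were called, against 5.25% of genes, 1 had an unadjusted p under 0.05 (Irak4), against 23%, and for 0 of 9 did the groups not overlap, against 20.5%. With antigens against control 0 of 9 were called, against 6.35% of genes, 2 had an unadjusted p under 0.05 (Irak4 and Myd88), against 25.2%, and 2 did not overlap (Myd88 and Tlr4), against 22.9%. With both treatments against control 1 of 9 was called, Irak4, against 16.7% of genes, 2 had an unadjusted p under 0.05 (Irak4 and Myd88), against 31%, and 3 did not overlap (Irak4, Myd88 and Tlr4), against 29.4%. These 3 comparisons share the control libraries.

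Between treated groups, PTSO + T. muris against T. muris gave 0 members called, against 0.616% of genes, 1 with an unadjusted p under 0.05 (Tlr3), against 8.89%, and 2 not overlapping (Irak1 and Tlr3), against 18.6%. PTSO + T. muris against PTSO gave 0 members and 0% of genes called, 0 members with an unadjusted p under 0.05, against 6.1% or 932 genes, and 0 not overlapping, against 15.4%. For the interaction, the effect of PTSO in the presence of antigens less its effect in their absence, 0 members and 0% of genes were called, with 0 members at an unadjusted p under 0.05 against 7.74% or 1181 genes. In these last comparisons DESeq2 called 9 and 4 genes and 0 members. The median size of a member's log2 fold change was 0.14 with PTSO, 0.15 with antigens and 0.17 with both against control, beside 0.14, 0.15 and 0.17 over all genes tested. The signed medians were -0.1, -0.12 and -0.13, beside 0.0016, 0.0012 and 0.00081. Without control libraries 2 and 3 the signed medians of the members were 0.03, -0.03 and -0.0089.

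**Figure D4:**
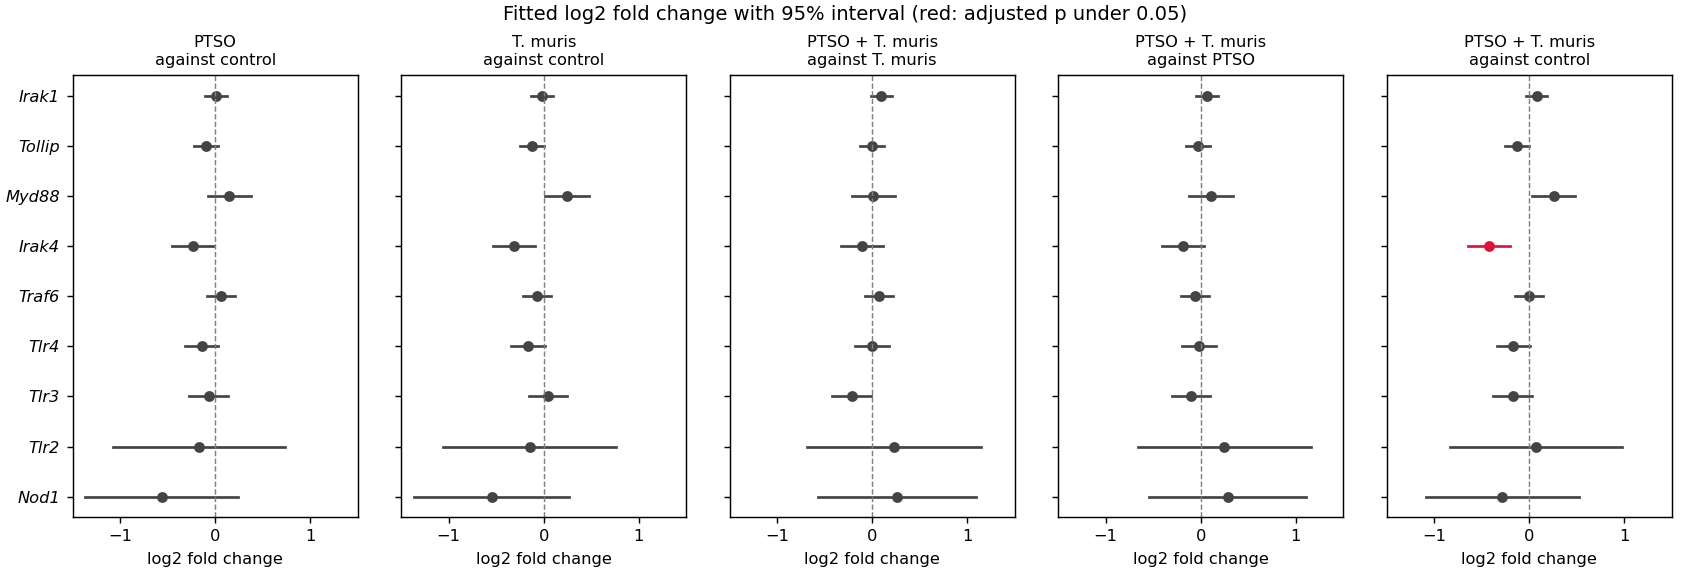
Fitted log2 fold change of the 9 tested genes in the 5 pairwise comparisons, with 95% intervals; red marks adjusted p under 0.05. Only Irak4 with both treatments against control (-0.42) is red, and the widest intervals belong to Tlr2 and Nod1, the genes with the lowest counts.

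The other genes of the pathway were read from 7 lists with 116 genes, of which 86 passed the filter. Of 8 other Toll-like receptors, 1 passed: Tlr6, a partner of Tlr2, at 5.47 CPM. Tlr9 (0.241 CPM) and Tlr1 (0.185 CPM) were lower and came next in that list per kilobase. Tlr13 had 1 count in all libraries together, and Tlr8 and Tlr11 had none. The helpers of Tlr4 were present, with Cd14 at 46.7 CPM, Lbp, which delivers lipopolysaccharide to Cd14, at 20.9 CPM and Ly96 at 4.14 CPM, and the chaperone and trafficking genes Hsp90b1 (137 CPM per kilobase) and Lrrc59 (110) led that list. Cd36, Cd180 and Ly86 had at most 3 counts in any library. Below the receptors, the ubiquitin-conjugating enzyme Ube2n (26.6 CPM per kilobase), the kinase Chuk (23.3) and the adaptor Tab2 (18.4) were the most abundant. Among restraints Tnip1 (37.8), Socs3 (32.8) and Otud7b (32.3) led.

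Around Nod1, the pore-forming protein gene Gsdmd (46.4 CPM per kilobase), Erbin (21.3) and Xiap (11) were the most abundant. The kinase Ripk2 was at 12 CPM and the related receptor Nod2 at 1.01 CPM. Slc15a3, Naip1 and Casp1 had at most 3 counts in any library and Nlrp1a had none; Naip genes are near-identical copies, so their counts are uncertain. Levels of the cytosolic nucleic acid sensors were led by Sting1 (23.9 CPM per kilobase), Trim25 (23) and Mavs (12.5). Of the genes these receptors induce elsewhere, Nfkb2 (40.2), Nfkbia (21.7) and Cxcl5 (21) were the most abundant, Csf2 and Ifnb1 had at most 2 counts in any library, and Il1b, Ccl20 and Ptgs2 had none. Ly96, Ripk2 and Nod2 were named here after their values were seen.

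With PTSO against control, 6 of the 86 list genes were called, 5 lower and 1 higher, which is 6.98% against 5.25% of all genes (2.36% higher and 2.9% lower). Tlr6 fell by 0.808 on the log2 scale, from 5.51, 7.86 and 9.63 CPM in the control libraries to 4.56, 4.16 and 4.41 CPM (adjusted p = 0.016). Cd14 fell by 0.26 ± 0.074, the ubiquitin ligase gene Peli2 by 0.473 ± 0.106, Gsdmd by 0.265 ± 0.0549 and the RNA sensor gene Ddx58 by 0.454 ± 0.101. The adaptor gene Traf1 rose by 1.05 ± 0.272, at a low level (mean 1.35 CPM in control and 2.81 CPM with PTSO). With antigens against control 7 were called, 3 higher and 4 lower, 8.14% against 6.35% of all genes (2.91% higher and 3.43% lower). The chemokine genes Cxcl1 (0.52 ± 0.154) and Cxcl5 (0.44 ± 0.114) and the trafficking gene Lrrc59 (0.25 ± 0.068) rose. Peli2 (-0.37 ± 0.106), Tnip1 (-0.34 ± 0.0863), Gsdmd (-0.21 ± 0.055) and Ddx58 (-0.41 ± 0.102) fell. The medians of the 86 genes were -0.06 and -0.03, beside 0.0016 and 0.0012 over all genes.

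With both treatments against control 15 were called, 5 higher and 10 lower, 17.4% against 16.7% of all genes (7.88% higher and 8.85% lower). The lipopolysaccharide-binding protein gene Lbp fell by 1.13 ± 0.228, from 22.3, 34.4 and 35.7 CPM to 9.97, 14.5 and 18.2 CPM. Tlr6 (-0.78 ± 0.187), Cd14 (-0.33 ± 0.0745), Peli2 (-0.52 ± 0.106), Tab1 (-0.26 ± 0.0741), Tnip1 (-0.42 ± 0.0865), Gsdmd (-0.31 ± 0.0552), Ddx58 (-0.52 ± 0.102), Dhx58 (-1.2 ± 0.398) and Icam1 (-0.5 ± 0.166) were also lower. Dhx58 had a low level, with a mean of 2.32 CPM in control and 1.01 CPM with both treatments. Cxcl1 (0.68 ± 0.153), the colony stimulating factor gene Csf3 (0.88 ± 0.253), Traf1 (0.88 ± 0.275), Lrrc59 (0.21 ± 0.068) and the inhibitory receptor gene Sigirr (0.32 ± 0.0758) were higher. The 3 comparisons share their controls. Of the 86 genes, 0 were called in either comparison between treated groups or in the interaction, at 0.616%, 0% and 0% of all genes.

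These list values against control were smaller in size without control libraries 2 and 3, and all kept their direction. Picking those libraries by their distance from the treated ones favours smaller values. The log2 fold change was smaller by more than 1.5 times for 3 of the 6 genes called with PTSO, 7 of 7 with antigens and 10 of 15 with both. With PTSO, Tlr6 was at -0.33, Peli2 at -0.22 and Ddx58 at -0.17 in that setting, whereas Cd14 (-0.24), Traf1 (0.89) and Gsdmd (-0.18) moved less. With antigens, Cxcl1 was at 0.31, Cxcl5 at 0.11, Lrrc59 at 0.05, Peli2 at -0.12, Tnip1 at -0.12, Gsdmd at -0.13 and Ddx58 at -0.12. With both treatments, Lrrc59 was at 0.01, Csf3 at 0.23, Sigirr at 0.09, Tlr6 at -0.3, Lbp at -0.66, Peli2 at -0.27, Tnip1 at -0.19, Ddx58 at -0.23, Dhx58 at -0.62 and Icam1 at -0.28. Cd14 (-0.31), Tab1 (-0.2), Traf1 (0.73), Gsdmd (-0.22) and Cxcl1 (0.48) moved less in that comparison. None of these calls passed the threshold against the single control.

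The list values and calls also changed when other libraries were left out. Without control library 1, the values of the genes called with PTSO were larger in size. They were -1 for Tlr6, -0.273 for Cd14, -0.587 for Peli2, 1.13 for Traf1, -0.308 for Gsdmd and -0.582 for Ddx58. When 1 library at a time was left out, 7 of the 15 calls with both treatments held throughout: Cd14, Lbp, Peli2, Tnip1, Gsdmd, Ddx58 and Cxcl1. None of the calls with PTSO or with antigens alone did, with 6 of 6 and 7 of 7 lost without control library 2 and 5 of 6 and 7 of 7 lost without control library 3. Libraries of the treated groups mattered as well, since Cxcl1 with antigens was lost in 11 of the 12 fits and Cd14 with PTSO in 9. Fitted on the libraries of the compared groups alone, 0 of 6, 0 of 7 and 8 of 15 calls held.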

How the data were processed

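RNA of 12 libraries was read from 1 table of raw read counts that the authors deposited, with 1 column per library and no further value columns. HISAT, DESeq2 and mm39 are named in the submitters' processing notes. The counting step is recorded no further, and its annotation release and use of strand are unknown here. The 10 members, the 7 gene lists and the tests were chosen with earlier results of these data known. Symbols and exonic lengths came by identifier from GENCODE M21 (53706 of 55137 identifiers found) and 1 symbol by RefSeq synonym. That annotation is of an earlier build, so it gives no coordinates of the counted genes, and exon overlaps are counted in it.

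The 1336 unannotated loci, with 0.351% of the counts, stayed in the tests. filterByExpr of edgeR 4.0.16 (R 4.3.3) kept 15267 genes with 99.9% of the counts, and CPM were scaled by TMM factors of 0.993 to 1.01. One model with 4 group coefficients (8 residual degrees of freedom, biological coefficient of variation 8.74%) was tested by quasi-likelihood with Benjamini-Hochberg adjustment over all genes, and a gene was called at adjusted p under 0.05. SE is the log2 fold change divided by the square root of F. Simulated counts covered PTSO against control over 15267 genes. The fit recovered 68% of 100 genes changed by 0.5 and 88% of 100 changed by 1 on the log2 scale. Of its calls, 5.45% were false. Changed genes were drawn from those above 1 CPM, which leaves out Tlr2 (0.718 CPM), with Nod1 (1.18 CPM) just above. The simulation held no split among the controls, so these shares do not carry over to the members. All 10 members are named, and of each list up to 4 called genes per comparison, the 3 most abundant per kilobase and those with at most 3 counts in every library. Alternatives were DESeq2 1.42.0, its size factors, no filter, a replicate block, only the libraries compared, each library left out, raw CPM and, added after seeing the data, no control libraries 2 and 3. Figures used matplotlib 3.10.9.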

Additional observations from a re-analysis of the deposited data

How the results depend on the processing

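Counts of called genes moved with the setting. For PTSO against control (802 called), DESeq2 gave 1384, no filter on low counts 1728, only the libraries compared 46 and no control libraries 2 and 3 gave 77. For T. muris against control (969) these were 1753, 2063, 1 and 8, with 1 member (Irak4) called by DESeq2 and 1 without the filter (adjusted p = 0.0481 and 0.0114). For PTSO + T. muris against T. muris (94) they were 183, 249, 479 and 425, and for PTSO + T. muris against PTSO (0) 9, 42, 34 and 80. For PTSO + T. muris against control (2554), only the libraries compared gave 864 and no control libraries 2 and 3 gave 204, each with 0 members called. For the interaction (0), DESeq2 gave 4, no filter 45 and no control libraries 2 and 3 gave 1.

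With 1 library left out at a time, the counts ran from 165 to 3637, 2 to 4044, 23 to 371, 0 to 36, 990 to 4799 and 0 to 1279 in the same order, and members called from 0 to 2 in each comparison with control and 0 in the others. The highest counts against control came without control library 1. With the replicate block, the counts were 904, 1246, 87, 0, 2674 and 1, the calls of members were those of the fit without it, and 1 list call was lost (Icam1 with both treatments, adjusted p = 0.054). The replicate numbers were not taken to pair the samples: the correlations of 18 same-numbered pairs ran from -0.0584 to 0.0976, and 6 of 12 libraries correlated best with their own number.

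Values of members that were not called changed sign under some settings, 43 times in all, and the cause was not tested. Among them was Irak4 with PTSO against control, at -0.24 with all libraries. Without control libraries 2 and 3, PTSO against control gave 0.0397 for Tlr3, 0.0476 for Irak4 and 0.0346 for Tollip, Tollip was at 0.00735 with antigens and 0.00646 with both, and the interaction was -0.155 for Irak4 and -0.0355 for Tollip. Tlr4 between PTSO + T. muris and T. muris was 0.000649 with DESeq2 size factors, 0.0023 with DESeq2, 0.00163 with only the libraries compared and 0.00126 without control libraries 2 and 3. Traf6 with both treatments against control was 7.47e-05, 0.000412 and 0.00299 with DESeq2 size factors, DESeq2 and no filter. With 1 library left out, Irak1 ran from -0.0228 to 0.039 with PTSO and from -0.0499 to 0.0144 with antigens against control, where Tlr2 ran from -0.569 to 0.098 and Tlr3 from -0.00833 to 0.101. Between PTSO + T. muris and T. muris, Myd88 ran from -0.0715 to 0.0713, Nod1 from -0.118 to 0.56, Tlr2 from -0.0668 to 0.643, Tlr4 from -0.0325 to 0.0384 and Tollip from -0.0261 to 0.0179. Between PTSO + T. muris and PTSO, Nod1 ran from -0.0958 to 0.582, Tlr2 from -0.0427 to 0.429, Tlr4 from -0.0624 to 0.0697 and Tollip from -0.0716 to 0.00632. With both treatments against control, Nod1 ran from -0.665 to 0.0123, Tlr2 from -0.218 to 0.254 and Traf6 from -0.063 to 0.0431, and the interaction of Traf6 ran from -0.0462 to 0.0618. All these are log2 values. With DESeq2 size factors or raw CPM, the 40 group means of the 10 members each moved by less than 1 SD. Among the members, depth limits Tlr5, Tlr2 and Nod1 most.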
